A study of Mus with 5 samples.

Results

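BATF (basic leucine zipper ATF-like transcription factor) peaks at gene promoters that stayed after brief exposure to retinoic acid (RA) were examined in mouse CD8 T cells. A site was taken as kept when a BATF peak of control cells lay on chromosomes 1 to 19, X or Y, was classed as Promoter in the authors' annotation and had a BATF peak of RA-treated cells within 5 kb of either end. This gave 6900 sites, out of 9287 BATF control peaks at promoters and 15812 BATF control peaks in all. The sites were chosen by the position and class of peaks in both BATF lists, so the BATF values below describe the sites and test nothing.

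In chromatin immunoprecipitation sequencing (ChIP-seq) an antibody pulls down the DNA fragments that a protein holds, and a peak is a stretch where they pile up. The cells were CD8 T cells from the spleen of WT mice, given anti-CD3 and anti-CD28 antibodies in IL-2 over 24 h, rested in 100 U/ml IL-2 over another 24 h, and then exposed to 50 nM RA over 1 h or left unexposed (control). Chromatin was precipitated with anti-BATF, with anti-RARα (against the RA receptor alpha) or with normal rabbit IgG. The treatment labels name a different interleukin for each of the 4 lists, whereas the culture protocol names IL-2 for all. Each of the 4 peak lists was called on 2 pooled ChIP files against the same 1 IgG file. No source used here states whether the 2 files were separate cultures or animals, or whether the IgG cells had received RA. There was thus 1 list per condition, no replicate spread, and no test of RA against control: an effect of RA and a difference between precipitations cannot be told apart. The BATF lists rested on 23110180 fragments in control and 16424269 with RA, and the RARα lists on 22655611 and 22475060.

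BATF is a small AP-1 family protein with no activation domain of its own. It pairs with JUN proteins, often beside IRF4 or IRF8, and in activated CD8 T cells it is known for opening chromatin at effector genes and for supporting metabolism and proliferation. RARα sits on DNA with an RXR partner, recruits corepressors without ligand and coactivators with it, and can restrain AP-1 activity. A promoter peak may reflect direct DNA contact or chromatin looped or tethered to it, which ChIP-seq does not separate.

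The kept sites were broad peaks close to gene ends. In control cells their width had a median of 862.5 bp (quartiles 538 and 1339, highest 7962). The detailed annotation put 44.8% of them at a transcription start, 20.4% in an intron, 12.2% in a CpG island, 7.9% in an exon and 5.83% in a 5′ UTR. Of those in an intron 86.7% were in the first intron, and of those in an exon 85.7% were in the first exon. The midpoint lay a median of 379 bp from the nearest end of a gene that the site named. Of the 6900 sites, 5491 named 1 gene, 1313 named 2 genes and 96 named 3 or more. Sites naming 2 genes had a median width of 987 bp, against 829 bp for sites naming 1. The 2387 promoter peaks with no RA peak within 5 kb were narrower, with a median of 478 bp.

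BATF occupancy was given by the authors as fold enrichment, the pileup of fragments at the summit plus 1 over the local IgG level plus 1. In control cells the kept sites had a median fold of 6.14 (quartiles 4.69 and 8.19, from 1.97 to 43.7), and the fold of their paired RA peaks had its median at 5.16 (quartiles 4.22 and 6.61, from 2.13 to 39.9). The promoter peaks with no RA peak had a median control fold of 4.45 (highest 12.8), below the lower quartile of the kept sites. The IgG level, recovered from fold and pileup, is the background value used by the peak caller and not a raw count of IgG fragments. Under the kept sites it had a median of 5 in control, so that a fold at a single site moved with small changes in it. Its lowest value was 2.861 in control and 2.025 with RA. Over the 6900 sites the control and RA folds had a Spearman correlation of 0.513, a description over sites that share libraries and the IgG file.

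**Figure D1:**
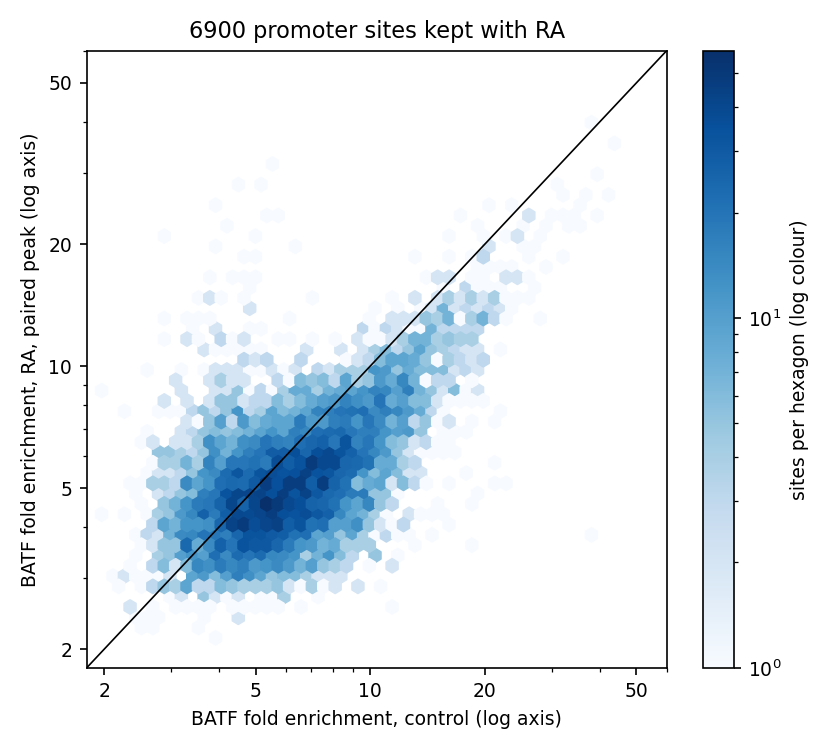
Each hexagon counts kept promoter sites by BATF fold enrichment in control (x axis) and in the RA peak of nearest midpoint (y axis), both log axes, with the line of equal fold. The mass of the 6900 sites lies below the line at control folds over 6 and around or above it at control folds under 5.

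The fold with RA was lower than in control at 4943 of 6900 sites, or 71.6% (Wilson 95% confidence interval 70.6 to 72.7, counting error only). The median ratio of RA to control fold was 0.828 (quartiles 0.677 and 1.04). A fold lower by at least 1.5 times was seen at 1617 sites (23.4%), beside 19.3% of the BATF control peaks of any class paired in this way, and a fold higher by at least 1.5 times at 403 sites (5.84%), beside 7.55%. The peaks of control cells were also wider: where site and RA peak overlapped, the median width was 965.5 bp in control and 535 bp with RA, and the summits lay a median of 81 bp apart. The RA library held 71.1% as many fragments as the control library, and the part of depth in the widths was not tested. By its formula, the added 1 lowers a fold more in the smaller library. Scaled to library depth as fragments per 1000000 in the library (FPM), which uses neither IgG nor the added 1, the median ratio was 0.837 and 73.7% of sites were lower with RA.

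Of the 6900 sites, 5682 (82.3%) overlapped their RA peak and 97.9% were paired with an RA peak that was itself classed as Promoter. The other 1218 sites lay a median of 856 bp from it and were weaker in control, with a median fold of 4.45 and a width of 452 bp. Several control sites could be paired with the same RA peak: 1948 sites shared theirs with another kept site, and as many as 5 sites pointed to 1 RA peak. At the edge of the rule, Spag1 was kept with an RA peak 4989 bp away (control fold 6.17, RA fold 3.15) and Slc35g1 with one 4964 bp away (6.72 and 3.96). Rmdn1 (control fold 5.37) and 6330549D23Rik with Rbm8a (4.74) fell outside, with the nearest RA peak at 5008 and 5028 bp.

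The 10 sites of highest control fold had control folds from 33.6 to 43.7. Tapbp, which encodes tapasin of the MHC class I loading complex, had the highest fold, at chr17:33919182-33921165 (mm10). It had 170 fragments and a fold of 43.7 in control, and 103 fragments and a fold of 34.4 with RA. Plk1, a mitotic kinase, at chr7:122158643-122160867, had 170 fragments and a fold of 42.2 in control and 117 fragments and a fold of 25.7 with RA. The shared promoter of Paics and Ppat, purine synthesis enzymes read in opposite directions, at chr5:76949855-76952354, had folds of 39.4 and 30.7. Mcm7, a subunit of the replicative helicase, shared with Ap4m1, had folds of 39.3 and 24.1. Cdc25c, a phosphatase that triggers mitosis, had folds of 34.5 and 25.5, and Stil, needed for centriole duplication, had 33.6 and 22.7. All of these were lower with RA by fold. At Tapbp, Paics with Ppat and Cdc25c the local IgG level in control was 2.86, at the lowest value of the kept sites.

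The shared site of Efcab11 and Tdp1, the latter a DNA repair enzyme, had folds of 35.8 and 26.9. Rnf19b, a ubiquitin ligase, had 35.7 and 22.8. Ptger4, the prostaglandin E2 receptor EP4, had the widest peak of all kept sites at 7962 bp, with 5 RA peaks within 5 kb: the RA peak of nearest midpoint had a fold of 3.85 and the strongest a fold of 32.6, against 36.9 in control. Dthd1 was the only one of the 10 with a higher fold with RA, 39.9 against 37.5, and it was the narrowest at 712 bp. In FPM, Dthd1 had 18 in control and 18.1 with RA, Plk1 had 7.36 and 7.12, and Rnf19b had 12.5 and 12.3, so that at these 3 sites the change in fold did not come with a like change in fragments. At Plk1 the local IgG level was 3 under the control summit and 3.6 under the RA summit after scaling to depth. Mcm7 with Ap4m1 kept a difference on both scales, with 6.84 FPM in control and 4.38 with RA.

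**Figure D2:**
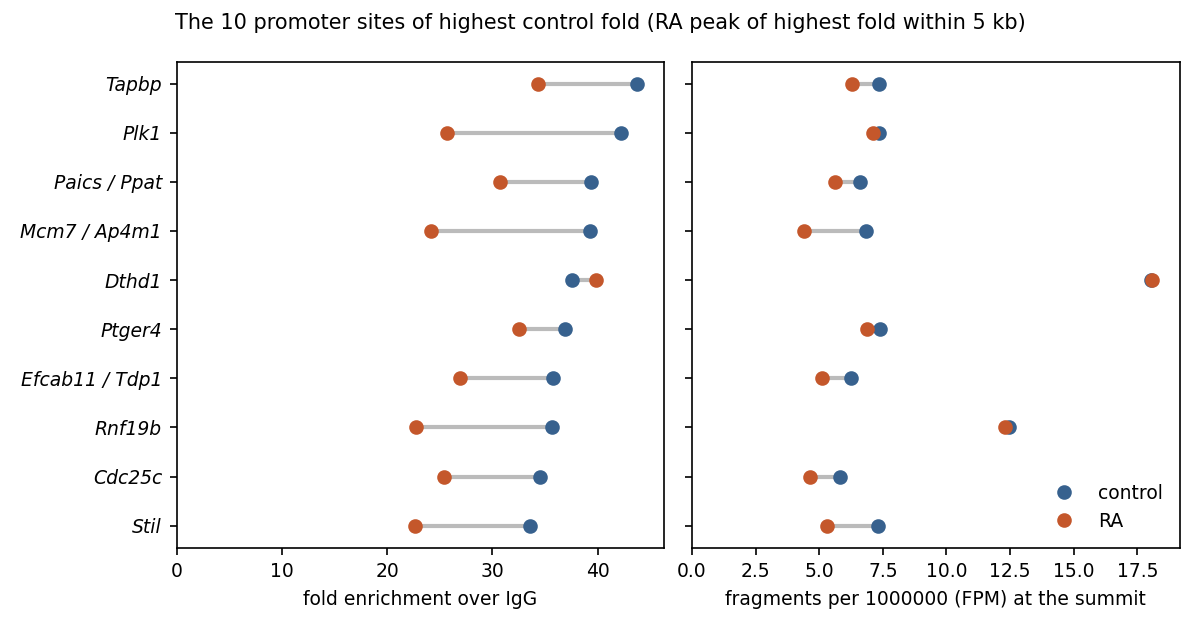
BATF fold enrichment (left, x axis) and FPM at the summit (right, x axis) in control and with RA at the 10 kept promoter sites of highest control fold, using the RA peak of highest fold within 5 kb. The RA fold is the lower one at 9 of the 10 sites, all but Dthd1, while the FPM of Dthd1, Rnf19b and Plk1 nearly coincide.

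The ratio of RA to control fold has the control fold in its denominator, and a weak site was kept only where its RA peak had passed the p-value cutoff. A fall of the ratio along the control fold is therefore built in and was not read as a result. The selection holds for every class, and kept BATF peaks outside promoters were set beside the promoter sites within the same range of control fold. Such ranges do not remove the built-in fall where classes differ in spread, and the range over 12 has no upper limit. The Spearman correlation of control and RA folds was 0.513 at promoter sites and 0.568 at kept non-promoter peaks. The part of this in the class difference was not tested. At control folds over 8 and up to 12 the median ratio was 0.678 at 1317 promoter sites and 0.811 at 583 kept non-promoter peaks. At folds over 12 it was 0.682 at 530 promoter sites and 0.86 at 544 non-promoter peaks. The extremes were not matched in strength: among the 100 promoter sites of highest control fold (18.9 and above) 95 had a lower fold with RA, with a median ratio of 0.684, whereas among the 100 kept non-promoter peaks of highest control fold (25.6 and above) 78 did, with a median of 0.868. The lower median at promoter sites held in all 6 ranges of control fold, with the nearest RA peak, with the RA peak of highest fold and in FPM. Below a control fold of 4 the medians were 1.24 and 1.35.

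Over all kept peaks the median ratio was 0.828 at promoters, 0.87 in exons, 0.944 in introns and 0.932 between genes. The promoter sites were the widest of these classes (median 862.5 bp, against 703, 561 and 569 bp), and wide peaks often held more than 1 RA peak: 72.6% of the 401 promoter sites wider than 2500 bp had 2 or more RA peaks within 5 kb, against 26.1% of all kept promoter sites. Pairing by midpoint can then pick a weak RA peak, as at Ptger4. At the 5098 promoter sites with exactly 1 RA peak within 5 kb, where no such choice arises, the median ratio was 0.835 and 70.6% were lower with RA, and at the 2937 kept non-promoter peaks with exactly 1 the median was 0.943. Kept promoter and non-promoter peaks up to 400 bp wide had the same median ratio, 1.07. Between 900 and 1500 bp the medians were 0.778 and 0.871, and over 2500 bp, where there were only 36 non-promoter peaks, the order turned to 0.722 and 0.689. With 1 list per condition the difference between the classes was described and not tested.

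**Figure D3:**
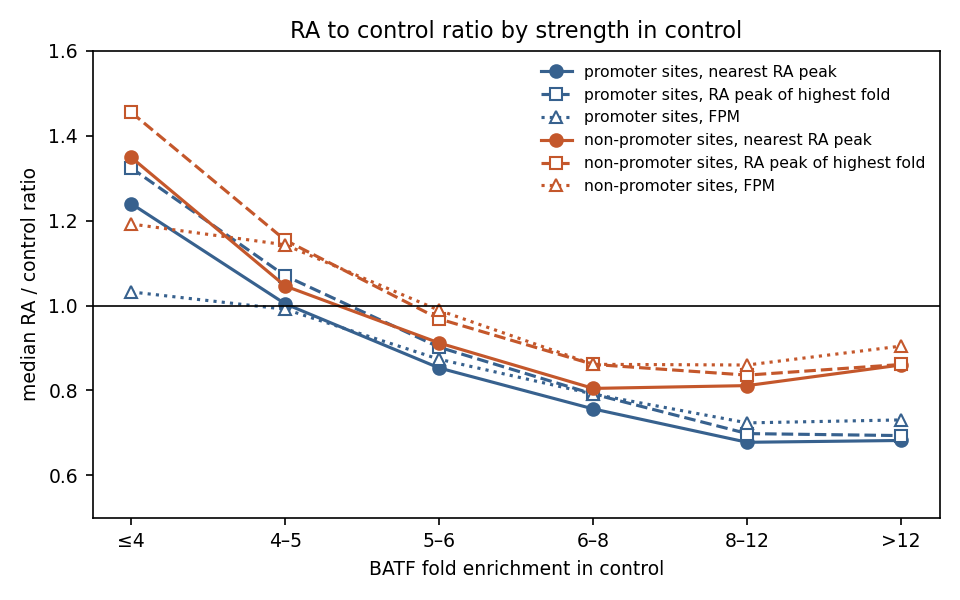
Median ratio of RA to control (y axis, no unit) by control fold enrichment (x axis, 6 ranges) for kept promoter sites and kept non-promoter BATF peaks, by 3 measures. On each measure the promoter line lies below the non-promoter line in every range, and at folds over 12 the medians of the nearest RA peak are 0.682 and 0.86.

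The 5 kept sites of lowest ratio, among those of at least the median control fold, were at Ptger4, Atp6v1g2 with Nfkbil1, Astl with Dusp2, Dleu2 and Ppp1r15b, with ratios of 0.104 to 0.249. All 5 had 2 or more RA peaks within 5 kb, and against the strongest of these the ratios were 0.882 at Ptger4, 0.788 at Atp6v1g2 with Nfkbil1, 1.04 at Astl with Dusp2, 0.343 at Dleu2 and 0.757 at Ppp1r15b. Only Dleu2, a noncoding RNA gene that hosts microRNAs, was low by both pairings, with folds of 11.6 in control and 3.98 in its strongest RA peak. In FPM the same 2 peaks had 2.29 and 1.4, a ratio of 0.611, while the local IgG level was 3.6 in control and 5.04 with RA. By the strongest RA peak, a choice made after the values were seen, the lowest ratios were at Ino80b, Ap4b1 with Dclre1b, Diap1, Pard6a with Acd, and Nap1l4, each with exactly 1 RA peak within 5 kb. Ino80b, a subunit of a chromatin remodeller, had 51 fragments and a fold of 12.8 in control and 16 fragments and a fold of 3.7 with RA. Diap1, an actin nucleator, had folds of 17.5 and 5.45. The shared site of Pard6a and Acd, the latter a telomere protein, had folds of 13.8 and 4.35. These 3 sites were lower in FPM too, but by less: the ratios were 0.441 at Ino80b, 0.563 at Diap1 and 0.504 at Pard6a with Acd, against 0.288, 0.311 and 0.315 by fold.

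At the other end, and again among sites of at least the median control fold, the 5 largest ratios to the RA peak of nearest midpoint were at Frmd8 (3.03), Arhgap11a (2.13), Icam5 with Mir1900 (2.13), Supt3 (1.8) and Pusl1 with Acap3 (1.66). At the first 3 the RA peak did not overlap the site and lay 2422, 706 and 684 bp away, so the values belong to neighbouring places. Supt3, a subunit of the SAGA histone acetyltransferase complex, overlapped its RA peak and had 31 fragments and a fold of 6.32 in control and 37 fragments and a fold of 11.4 with RA. Pusl1 with Acap3 had 2.12 FPM in control and 2.19 with RA, while the local IgG level was 6 in control and 2.16 with RA. Against the strongest RA peak, the same choice as above made after the values were seen, the largest ratios were at Pptc7 (5.79), Desi2 (4.12), Grap2 (3.84), Hmha1 (3.72) and Sbf1 (3.68). These sites had 2 to 5 RA peaks within 5 kb, and their RA peaks of nearest midpoint were below the control fold, with ratios of 0.585, 0.488, 0.492, 0.864 and 0.544.

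The rule did not use the RARα lists. Of the 6900 sites 365 had a RARα control peak within 5 kb, or 5.29% (interval 4.79 to 5.84), beside 7.16% of all BATF control peaks. The share was 13.8% (12.4 to 15.4) at kept intron peaks, 16.7% (15.1 to 18.5) at kept intergenic peaks, 11.5% (8.4 to 15.5) at kept exon peaks and 1.05% (0.71 to 1.54) at promoter peaks with no RA peak. A RARα RA peak was within 5 kb at 49 kept promoter sites, or 0.71% (0.538 to 0.938), an interval that covers the 0.841% of all BATF control peaks. The share was 0.168% of promoter peaks with no RA peak. Of the 365 sites with a RARα control peak, 30 (8.22%) also had a RARα RA peak, near the 95 of 1132 (8.39%) over all BATF control peaks and the 58 of 618 (9.39%) at kept non-promoter peaks. The RARα share scarcely varied with BATF strength, from 4.61% at control folds up to 4 to 5.85% at folds over 12. By width it was 5.64% at sites up to 400 bp, 3.7% between 400 and 600 bp, 7.43% between 1500 and 2500 bp and 11.2% over 2500 bp, and a wider peak also spans a wider search. It was 4.64% (3.72 to 5.78) at sites whose BATF fold was lower by at least 1.5 times with RA and 5.49% (4.91 to 6.14) at the others, intervals that overlap. Peaks are not replicates and neighbouring sites can share 1 RARα peak, so these intervals are too narrow as a guide to repeat experiments.

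**Figure D4:**
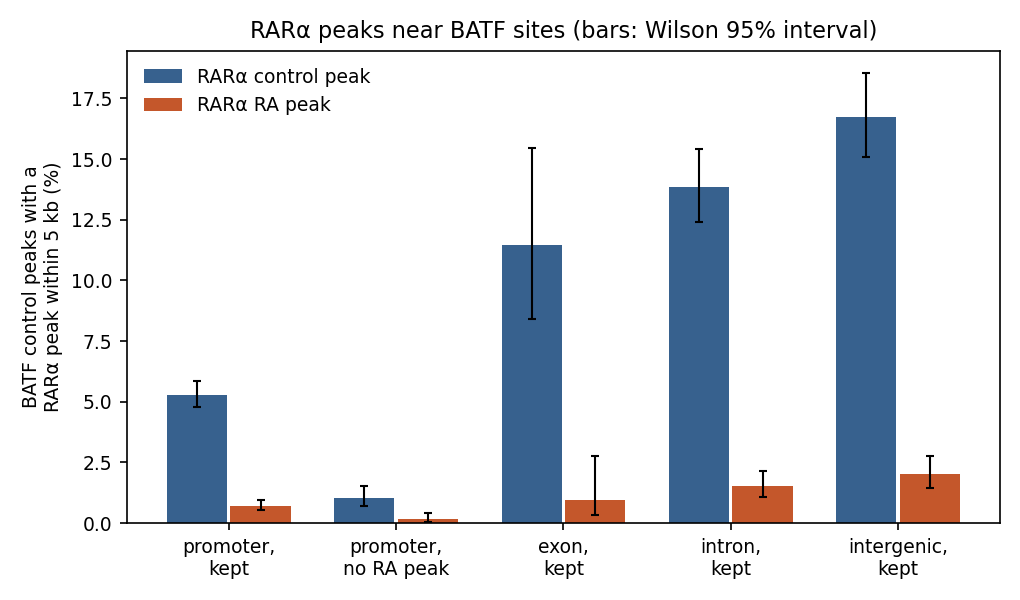
Share of BATF control peaks with a RARα peak of control or RA-treated cells within 5 kb (y axis, percent) by class of BATF peak (x axis), bars with Wilson 95% intervals for counting error. Kept promoter sites (5.29% and 0.71%) stand below the kept exon, intron and intergenic peaks for the RARα control list and above the promoter peaks without an RA peak.

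Seen from the RARα lists, 257 of 1160 RARα control peaks (22.2%) had a kept promoter site within 5 kb and 455 (39.2%) had a kept BATF peak of another class there. Of the 229 RARα control peaks that were themselves at promoters, 189 (82.5%) were near a kept promoter site. In the RARα RA list 39 of 565 peaks (6.9%) had a kept promoter site within 5 kb and 52 (9.2%) a kept BATF peak of another class, and 31 of the 45 at promoters (68.9%) were near a kept promoter site. The RARα peaks near kept promoter sites had a median fold of 3.12 in the control list, against 3.09 for the rest, and 3.28 against 3.02 in the RA list.

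A RARα control peak overlapped 2.58% of the 6900 kept sites, beside 3.92% of all BATF control peaks, and a RARα RA peak overlapped 0.377%, beside 0.487%. A RARα peak of each list overlapped 15 of the 6900 kept sites, a share not counted over all BATF control peaks. The strongest of the 15 sites was at Gfi1, a repressor that acts in T cell and myeloid development, at chr5:107723677-107726316. There BATF had a fold of 18.5 in control, 4.8 in its nearest RA peak and 11 in the strongest, and RARα had 21 fragments and a fold of 5.32 in control and 13 fragments and a fold of 3.28 with RA. Dusp5, a phosphatase of nuclear ERK, had BATF folds of 9.68 and 3.76 and RARα folds of 4.38 and 3.79. Letmd1 had BATF folds of 8.4 and 8.53 and RARα folds of 2.51 and 4.05. The shared site of Wdr25 and Wars, the latter a tryptophan tRNA ligase, had BATF folds of 8.39 and 4.7 and RARα folds of 6.96 and 4.8. Gm7904 had BATF folds of 7.67 and 8.59 and RARα folds of 7.73 and 3.29. RARα was thus higher with RA at Letmd1 and lower at the other 4, on 12 to 29 fragments a peak. At Dusp5 the RARα control peak and the RARα RA peak did not overlap each other, so those folds belong to neighbouring places.

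Of the 178 kept sites that overlapped a RARα control peak, 160 had no RARα RA peak within 5 kb. That share was not counted over all BATF control peaks. By distance in place of overlap, a different measure, 30 of the 365 kept sites with a RARα control peak within 5 kb (8.22%) also had a RARα RA peak there. So did 95 of the 1132 such BATF control peaks of any class (8.39%). The strongest of the 160 sites were Paics with Ppat, Rasa3 (a Ras GTPase activating protein), Lef1 (a transcription factor of naive and memory T cells), Cbfa2t3 (a corepressor) and Kcnk5 (a potassium channel). Their RARα control peaks had folds of 3.35, 3.01, 3.03, 2.52 and 3.09 on 11 to 24 fragments, beside a median fold of 3.09 over all RARα control peaks. BATF at Lef1 covered 7020 bp, with a fold of 20.6 in control and 8.48 in its strongest RA peak, whereas Cbfa2t3 had 20.2 in control and 25 with RA.

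In 17 of 19 gene lists other than the markers of other cells, the share of genes with a kept site was above that of all protein-coding genes. Of 21883 protein-coding genes in the RefSeq table, 6097 (27.9%) were named at a kept promoter site. That share takes in genes of every kind, expressed or not, and no list was tested against it. Genes are compared by their kept site of highest control fold, which over these 6097 genes had a median fold of 6.81 and a median ratio of 0.782. Below, paired values are the control fold and the fold of the RA peak of nearest midpoint, unless the strongest RA peak is named. A kept site counted for every gene that it named, and Cd3d and Cd3g had the same best site. All 17 genes of the T cell receptor signalling list had a kept site, including the CD8 T cell markers Cd8a, Cd8b1, Cd3d, Cd3e, Cd3g, Cd2 and Thy1. Of markers of other cells, 0 of 9 B cell genes, 0 of 11 myeloid genes and 0 of 12 genes of non-haematopoietic tissues had one. Among the CD4 and regulatory T cell markers 1 of 9 did, Gata3 (control fold 5.51), a factor that CD8 T cells use too.

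**Figure D5:**
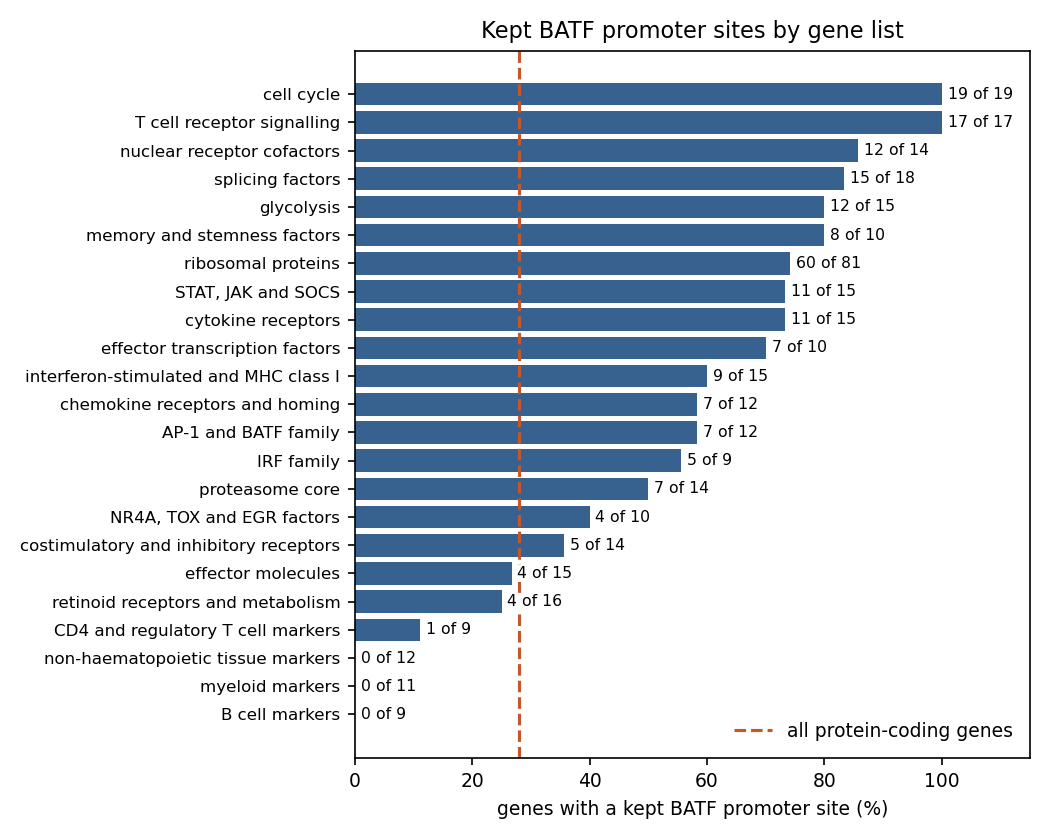
Share of the genes in each of 23 lists that had a kept BATF promoter site (x axis, percent), with the number of genes beside each bar and the share of all protein-coding genes (27.9%) as a dashed line. The cell cycle and T cell receptor lists reach 100%, and the lists of B cell, myeloid and non-haematopoietic markers are at 0.

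Cell cycle genes had the highest median control fold of the lists. All 19 had a kept site, and the median control fold was 9.88. Mki67, the Ki-67 proliferation antigen, had 99 fragments and a fold of 25.6 in control and 71 fragments and a fold of 23.8 with RA. Ccna2, cyclin A2, had 105 fragments and a fold of 24 in control and 82 fragments and a fold of 24.9 with RA. E2f1, the factor that drives S phase genes, had folds of 18 and 12.5, and Cdk1, the mitotic kinase, had 14.8 and 12. The median ratio of the list was 0.813, and 13 of 19 genes were lower with RA against the strongest RA peak, beside 77.5% of all protein-coding genes with a kept site. Cdkn1a, the p21 inhibitor, was the only gene of the list lower by at least 1.5 times on that measure, with 9.88 and 4.55. Cdk2 was the only gene higher by as much, with 2.47 and 4.93. Against the RA peak of nearest midpoint, 4 of the 19 genes were lower by at least 1.5 times. Shares of all genes at that threshold were not counted on either measure.

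The other growth and housekeeping lists had lower median folds than the cell cycle list. Of the glycolysis genes 12 of 15 had a kept site, with a median fold of 7.97, led by Aldoa (12.2 in control and 6.7 with RA), Gapdh (11 and 7.72), Pfkp (10.7 and 7.33) and Eno1 (10.6 and 6.06). Of the splicing factors 15 of 18 had one, led by U2af2 (11.4 and 6.61), and of the proteasome core genes 7 of 14, led by Psma5 (16.2 and 10.1). Ribosomal protein genes had one in 60 of 81, with a median fold of 7.2 and a median ratio of 0.742, and Rpl24 (12.7 and 7.57), Rpl8 (12.7 and 8.26) and Rplp2 (12.6 and 5.08) led. Ribosomal protein genes have many processed copies, so their number of named sites is uncertain.

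Genes of the AP-1 and IRF families, which include partners of BATF, were named in part. Batf itself had a kept site with a fold of 7.03 in control and 4.38 with RA. Fosb (19.7 and 13.2), Junb (12.8 and 10.3 in the strongest RA peak), Jund (9.6 and 9.19) and Fosl2 (9.33 and 4.68) were the strongest of 7 of 12 genes. Fos and Atf3 had a promoter peak in control and no RA peak within 5 kb. Of the IRF genes 5 of 9 had a kept site, with Irf4 at 14.8 and 10.9, Irf2 at 10.8 and 9.66, Irf7 at 6.58 and 8.92, and Irf9 at 5.56 and 4.93. Irf1 and Irf8 had a promoter peak in control only.

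Among transcription factors of effector cells 7 of 10 had a kept site. Zbtb32, a zinc finger repressor induced on activation, had folds of 15.9 and 11.6. Hif1a, the hypoxia factor, had 7.62 in control and 3.38 in the nearest RA peak, but a stronger RA peak of 16.2 also lay within 5 kb. Id2 had 7.62 and 4.75. Prdm1 and Zeb2 had a promoter peak in control only, and Eomes had peaks outside promoters only. Of the memory and stemness factors 8 of 10 had a kept site, with Lef1 above, Myb at 12.5 and 10.6, and, in the strongest RA peak, Foxp1 at 11 and 7.12 and Satb1 at 7.84 and 5.08 (3.36 in the nearest). Bcl6 had a promoter peak in control only and Bach2 had peaks elsewhere only.

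Of the effector molecules 4 of 15 had a kept promoter site (26.7%), close to the 27.9% of all genes: Prf1, perforin, at 7.2 and 5.83, Tnf at 7.02 and 3.42, Lif at 6.54 and 7.12, and Gzmb, granzyme B, at 5.33 and 4.28. Gzma, Gzmc, Gzmk, Fasl, Xcl1, Ccl1, Ccl3, Ccl4 and Ccl5 had BATF control peaks outside promoters only, Ifng had a promoter peak in control only and Il2 had no BATF control peak. Of the NR4A, TOX and EGR list 4 of 10 had one, led by Nfatc2 (9.71 and 7.28), while Nr4a1, Nr4a3, Tox and Tox2 had peaks elsewhere only. Among costimulatory and inhibitory receptors 5 of 14 had one, led by Ctla4 at 15.7 in control and 16.3 with RA, and Btla at 10.4 and 6.67. Pdcd1 and Tigit had peaks elsewhere only, and Lag3 and Havcr2 had none.

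Cytokine receptors, chemokine receptors and the signalling proteins below them were counted in the same way. Of the cytokine receptors 11 of 15 had a kept site, and Il12rb1, a chain of the IL-12 receptor, was the strongest with 122 fragments and a fold of 24.3 in control and 81 fragments and a fold of 21.1 with RA. Il21r had 15.4 in control, 4.51 in the nearest RA peak and 17.3 in the strongest, so that its direction turned with the pairing. Il18rap had 12.2 and 9.54, and Il2rb had 11.7 and 11.7. Of the chemokine and homing genes 7 of 12 had one, with Cxcr4 at 20.4 and 16.7, Ccr7 at 11.9 and 6.7 in the strongest RA peak, and Itgb7, a chain of the gut-homing integrin, at 8.69 and 8.02. Ccr9 and Cxcr3 had peaks outside promoters only. In the STAT, JAK and SOCS list 11 of 15 had one, with Stat3 at 15.5 in control with a ratio of 0.646, Stat5a at 11.8 and 7.6, Jak1 at 10.2 and 7.25, and Stat5b at 9.88 and 4.9. In the interferon and MHC class I list 9 of 15 had one, with Psmb8, an immunoproteasome subunit, at 10.9 and 4.9 below Tapbp, and B2m, the class I light chain, at 9.65 and 7.7.

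Retinoid genes had a kept site in 4 of 16 cases, near the 27.9% of all genes. Rara, which encodes RARα, had 83 fragments and a fold of 11.9 in control and 45 fragments and a fold of 8.91 with RA, at chr11:98941479-98942610, and a RARα control peak of fold 3.19 lay within 5 kb. Rxrb (6.52 and 7.34), Rarg (5.53 and 3.73) and Rdh10 (4.15 and 3.57) followed, but none of their best sites overlapped its RA peak, with gaps of 3765, 2844 and 248 bp. Cyp26a1, Rarb, Crabp2, Dhrs3 and Stra6, known RA targets, had no BATF control peak. Of the cofactors that nuclear receptors recruit 12 of 14 had a kept site, with Sin3a at 12.3 and 8.36, Ncor1 at 10.7 and 7.82, Kat2a at 8.1 and 4.38, and Hdac3 at 7.76 and 4.38. The median ratio of that list was 0.706, and none of the 12 had a RARα control peak within 5 kb.

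Genes with a RARα peak were also counted by list. The best kept site of a gene had a RARα control peak within 5 kb for 4.23% of the 6097 protein-coding genes. Of the cytokine receptor genes 5 of 11 had one, namely Il2rb, Il4ra, Il18r1, Il21r and Ifngr1. Of the T cell receptor genes 4 of 17 had one (Cd8a, Zap70, Thy1 and Cd5), and of the memory factors 3 of 8 (Lef1, Foxo1 and Foxp1). The interferon and MHC class I list had 0 of 9, the costimulatory and inhibitory receptors 0 of 5 and the nuclear receptor cofactors 0 of 12. Of the cell cycle genes 2 of 19 had one (Ccnd2 and Myc), of the splicing factors 1 of 15, of the ribosomal protein genes 1 of 60, of the glycolysis genes 0 of 12 and of the proteasome genes 0 of 7. The remaining 8 lists had 1 or 2 such genes each. These lists are small, and no difference between them was tested.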

How the data were processed

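The authors aligned paired-end reads of 4 ChIP samples and 1 IgG sample with Bowtie2 to mm10, removed duplicates, called peaks with MACS 2.2.7.1 on 2 pooled files per list (p-value cutoff 0.001 for RARα, 1e-05 for BATF) and annotated them with HOMER. The deposited pileup is a signal that counts summit fragments, stored at 0.9875 per fragment for BATF control, which was undone here. The deposited fold enrichment is a ratio over the local IgG level, recovered here from pileup and fold. A −log10 p-value and a −log10 q-value were also deposited for each peak, and only the p-value was used.

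Members were paired with the RA peak of nearest midpoint within 5 kb, and shares have Wilson 95% intervals for counting error only. The pairing was tested on simulated data first. Gene names were matched to a RefSeq table for GRCm38.p6, which mm10 corresponds to (6607 of 6630 names). The table gives no strand, so distances are to the nearer gene end.

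The members, gene lists and comparisons were chosen with earlier results of these data known. Named genes were the 10 members of highest control fold, the 5 largest and 5 smallest ratios among members of at least the median fold, the 5 strongest overlapping a RARα peak in both lists and in control only, the 2 on each side of 5 kb, and up to 4 leading genes with a kept site and those without in each of 23 lists. Other names were chosen after their values were seen. A leading gene of a list is not reported here. Alternatives were other distances, thresholds, pairings, scalings and promoter definitions. Motifs were not analysed and no genome sequence was used here. Calculations ran in Python 3.11.15 with pandas 2.3.3, numpy 2.4.6 and scipy 1.17.1, and plots in matplotlib 3.10.9.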

Additional observations from a re-analysis of the deposited data

How the results depend on the processing

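The number of kept sites was 5682 with overlap required, 6364 at 1 kb, 7193 at 10 kb, 4019 at a −log10 p of at least 10 in both lists, 3361 at a fold of at least 5 in both, and, added after the data were seen, 4913 with a midpoint within 1 kb of a gene end and 3091 with the detailed annotation at a transcription start. The median ratio of RA to control fold, 0.828, was 0.863 with the RA peak of highest fold, 0.797 over overlapping pairs, 0.876 without the added 1, 0.837 in FPM, 0.786 with 1 site per gene and 0.842 at the stricter p. The share of sites lower with RA, 71.6%, was 66.7%, 78.5%, 65%, 73.7% and 79.1% under the first 5 of these and 73.7% at transcription starts. The ratio at promoters was below that of kept non-promoter peaks under each of these 6 settings (there 0.982, 0.88, 0.994, 0.97, 0.871 and 0.948). The share of sites with a RARα control peak, 5.29%, was 2.58% by overlap, 3.22% within 1 kb, 2.48% at a RARα p of 1e-05, 4.51% with 1 site per gene and 3.82% at transcription starts, and for RARα RA peaks, 0.71%, it was 0.377%, 0.449% and 0.333% under the first 3. The kept non-promoter peaks were at 8.56%, 9.79%, 9.14% and 13.2% for the control list under the first 4. Over 19 gene lists, without the marker lists, 67.7% of 331 genes had a kept site, and 52.9% with a midpoint within 1 kb of an end of that gene, a setting that takes fewer sites.

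No paired analysis was possible because each condition has only 1 pooled list and no result comes from a test. Motif alternatives and the distance to a start site by strand were not run, since no sequence or strand was used here. Depth limits single sites: the lower quartile of the kept sites had 27 fragments in control and 18 with RA.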

Other observations

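Kept BATF promoter sites were not spread evenly over the chromosomes. Of the protein-coding genes in the RefSeq table, 34.9% on chromosome 19, 34.4% on chromosome 11 and 34% on chromosome 17 were named at a kept site. On the X chromosome 80 of 966 genes were (8.28%, Wilson 95% interval 6.7 to 10.2), with 87 sites, and no kept site lay on Y. The next lowest shares were 22% on chromosome 7 and 23% on chromosome 6. These shares take in genes of every kind, expressed or not, and the gene content of each chromosome was not matched.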
